A study of Mus musculus with 36 samples.

Results

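Liver RNA was compared between mice fed tangerine tomato powder and mice fed red tomato powder, over all genes with enough reads. The members of the comparison are the 12 tangerine and the 12 red libraries, 24 of the 36 libraries of the series, each from 1 mouse and grouped by its treatment label. All mice were male C57BL/6, an inbred strain, aged 10 weeks. From 4 weeks of age, for 6 weeks, they ate AIN93G, a purified rodent diet, to which 10% by weight of powdered tomato, red or tangerine, was added. The 12 control mice ate AIN93G alone and serve as a reference level. The labels name no cross, allele, drug or time of day of tissue collection, and give group sizes that start below the 12 libraries found per diet.

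Red tomatoes store lycopene mostly in the all-trans form, whereas tangerine tomatoes carry a defective carotenoid isomerase and store cis forms of lycopene and its precursors. In liver, the circadian clock is a loop in which the activators CLOCK or NPAS2 and BMAL1, the product of Arntl, switch on Per, Cry, Nr1d and the PAR bZIP genes Dbp, Tef and Hlf. The PER, CRY and NR1D proteins then repress the activators, so Dbp and Arntl peak at opposite times of day, and many genes of sugar, lipid, amino acid and xenobiotic metabolism follow. The first enzymes that act on plant compounds in hepatocytes include the cytochromes P450 induced through the aryl hydrocarbon, CAR and PXR receptors.

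Libraries held between 21290169 and 33810573 counts over the series, and the tangerine minus red difference in mean total was -48260.2 counts (two-sided permutation p 0.967). All 9 hepatocyte markers were tested and together took at least 104877 CPM (counts scaled to the same total in every library) in every library. Red 186 stood apart. Its 22 T cell markers summed to 13593 counts against 275 to 538 in the other red libraries and 361 to 559 on tangerine, its skeletal muscle markers to 896 against at most 32 in any other library, and its adipocyte markers to 223 against at most 12. Tangerine 216 held 383 counts of pancreas markers against at most 16 in any other library, and the cholangiocyte markers were highest in tangerine 192 (3018) and red 199 (1750). In bulk liver, fewer cells of a type and less RNA per cell cannot be told apart.

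After 6 weeks the livers of the tomato-fed groups differed in 241 of 14068 tested genes, 1.71% of those tested, at an adjusted p under 0.05 (edgeR quasi-likelihood test). Tangerine livers had higher levels of 103 genes (0.732%) and lower levels of 138 (0.981%). Most changes were modest. The median log2 fold change was 0.42 among the higher genes and -0.43 among the lower, against a median absolute change of 0.09 over all tested genes. Only 25 of the 241 changed by at least 1 on the log2 scale, and 152 changed by less than 0.5. Protein-coding genes made up 218 of them. No tested gene, 0% of 14068, had all 12 tangerine libraries above or all 12 below every red library, so the ranges of the groups overlapped in each of the genes described here. The unadjusted p was under 0.05 for 2127 genes, 15.1% of those tested, and the fitted change was above 0 for 6829, or 48.5%. The adjusted p was 0.0497 for the gene just inside the threshold and 0.0502 for the one just outside.

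**Figure D1:**
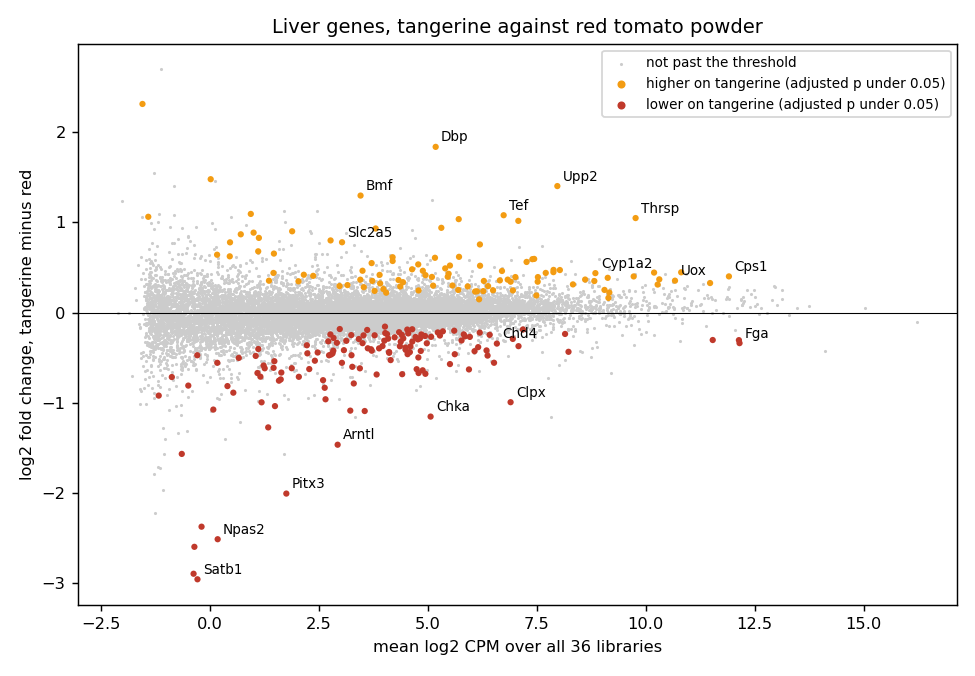
Log2 fold change of tangerine against red (vertical axis) by mean log2 CPM over 36 libraries (horizontal axis), 1 point per tested gene; orange and red points are the 103 genes higher and 138 lower at an adjusted p under 0.05. The genes furthest from 0 include the clock genes Dbp, Npas2 and Arntl and the T cell genes at the lower left, of which Satb1 is named.

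Most activators of the clock were fitted lower on tangerine. Npas2, Arntl and Clock passed the test, 3 of the 6 tested activators, all lower, where 0.981% of all tested genes were called lower. Of the 6, 4 were fitted lower and 2 higher (at most 0.21), and their median log2 fold change was -0.56. Gene positions are those of GENCODE M21 on GRCm38, where all genes described at length but the T cell receptor segment Trbc2 are annotated as protein coding. Npas2 (ENSMUSG00000026077, chr1:39193731-39363236, plus strand), the partner that can stand in for CLOCK, had 0.485 CPM in the lowest, 3.67 in the median and 10.4 in the highest red library. On tangerine it had 0.0968, 0.498 and 2.32 CPM. Of the 12 tangerine libraries 6 lay below every red library, and the log2 fold change was -2.51 (SE 0.585, adjusted p 0.0224). Arntl (ENSMUSG00000055116, chr7:113207465-113314126, plus strand), which encodes BMAL1, had 6.16, 17.7 and 29.3 CPM on red and 1.17, 5.78 and 12.9 CPM on tangerine. No tangerine library reached the red median, 7 lay below the lowest red library (red 170), and the log2 fold change was -1.46 (SE 0.396, adjusted p 0.0464). Clock itself moved less, from a red median of 59.6 CPM (49.0 to 78.9) to 44.6 CPM on tangerine (24.6 to 61.2), a log2 fold change of -0.46 (SE 0.127, adjusted p 0.0492). Leaving out 1 library at a time, Npas2 stayed past the threshold in all 36 fits, Arntl in 17 and Clock in 9. Omitting tangerine 216 gave the largest adjusted p for all of these.

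Among the repressors and PAR bZIP factors, which the activators switch on, 10 of 11 tested genes were fitted higher on tangerine, with a median log2 fold change of 0.54. The test was passed by Dbp, Tef and Nr1d2 in that direction and by Cry1 in the other. Dbp (ENSMUSG00000059824, chr7:45705088-45710203, plus strand), an output transcription factor of the clock, had 3.64, 15.01 and 57.6 CPM in the lowest, median and highest red library and 29.1, 68.7 and 148 CPM on tangerine. All 12 tangerine libraries were above the red median and 8 above every red library (log2 fold change 1.84, SE 0.458, adjusted p 0.0289). Its relative Tef had a red median of 65.3 CPM (40.1 to 143) and a tangerine median of 133 CPM (75.7 to 291). The fitted difference was 2.11-fold (log2 1.08, SE 0.265, adjusted p 0.0271). For Nr1d2, a heme-binding repressor also called REV-ERB beta, the medians were 56.0 CPM (33.9 to 92.1) and 87.2 CPM (65.7 to 144), with a log2 fold change of 0.75 (SE 0.167, adjusted p 0.0173). Cry1, a repressor that peaks later in the cycle than Dbp, went from a red median of 11.2 CPM (7.61 to 18.1) to 7.93 CPM (5.54 to 10.9), a log2 fold change of -0.47 (SE 0.130, adjusted p 0.0497).

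Several other members missed the threshold. Per2, a core repressor, had a log2 fold change of 0.54 (SE 0.157, adjusted p 0.0664), Per1 one of 0.71 (SE 0.367, adjusted p 0.354) and Nr1d1 one of 0.41 (SE 0.175, adjusted p 0.252). Chosen after their values were seen, Cry2 had 0.43 (adjusted p 0.0805) and the PAR bZIP gene Hlf 0.38 (adjusted p 0.193). Nr1d2 stayed past the threshold in all 36 fits that left out 1 library, Tef in 31, Dbp in 26 and Cry1 in 13. The calls of both Tef and Dbp ended without red 199 or 202 or without tangerine 215, 216 or 217, and that of Dbp also without red 133, 156, 166 or 175 or tangerine 242. The annotated span of Dbp shares 737 bases with Sphk2 on the other strand. Sphk2 did not pass the test (log2 fold change -0.34, SE 0.113, adjusted p 0.125), and whether reads were counted by strand is not given in the sources used here.

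Output genes of the clock moved in both directions, 3 of 17 tested higher and 1 lower by the test. Upp2 (ENSMUSG00000026839, chr2:58567298-58792971, plus strand), a liver uridine phosphorylase, had 66.8, 136 and 421 CPM on red and 158, 330 and 957 CPM on tangerine, with all 12 tangerine libraries above the red median (2.64-fold, log2 1.40, SE 0.332, adjusted p 0.0248). Gys2, the liver glycogen synthase, rose from a red median of 136 CPM (106 to 174) to 192 CPM (143 to 312), a log2 fold change of 0.59 (SE 0.131, adjusted p 0.0173). Slc16a12, a creatine transporter, ranged from 45.1 to 81.1 CPM on red and from 59.4 to 125 CPM on tangerine, with a log2 fold change of 0.52 (SE 0.135, adjusted p 0.036). Pitx3 (ENSMUSG00000025229, chr19:46135685-46148326, minus strand), a homeobox factor best known from lens and midbrain, fell from 6.84 CPM (3.50 to 22.5) to 2.25 CPM (0.44 to 6.40). The fitted fall was 4.01-fold (log2 -2.00, SE 0.491, adjusted p 0.0271), and 10 tangerine libraries lay below every red one. The Pitx3 gene ends within the last bases of Elovl3 on the other strand (10 bases shared), a fatty acid elongase with far more reads. Elovl3 had a red median of 382 CPM (207 to 710) and a tangerine median of 201 CPM (67.8 to 376), with a log2 fold change of -1.16 (SE 0.334, adjusted p 0.0657). The 2 genes are therefore uncertain as separate measurements. Gys2 kept its call in all 36 fits, Upp2 lost it without tangerine 215, 216 or 217, and Pitx3 lost it without red 156 or 202 or tangerine 215, 216, 217 or 242. Slc16a12 stayed past the threshold in 24 of 36.

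The sequences around the start sites of these genes were searched for the E-box CACGTG, bound by CLOCK with BMAL1, and the D-box TTATGTAA, bound by the PAR bZIP factors. RefSeq windows of 300 bases (250 before to 50 after the start, GRCm38.p6) were read on both strands, and matches of different motifs may share bases. Of the tested genes 9937 had a window. The E-box was in 11.6% of these, in 6 of the 68 windowed genes higher on tangerine (8.82%) and in 10 of the 105 lower (9.52%). The D-box was in 0.745%, in 2 of 68 (2.94%) and in 0 of 105. The nuclear receptor half-site AGGTCA was in 15.6%, in 18 of 68 (26.5%) and in 17 of 105 (16.2%). No E-box or D-box letters were in the windows of Dbp, Pitx3, Npas2 or Arntl. Windows of 3 called genes are printed 5′ to 3′ on the gene's strand, because they hold E-box letters in a gene that was higher (Tef), in one that was lower (Cry1), and beside a D-box (Slc16a12). Capitals mark the matches, and in Slc16a12 the D-box reads on the opposite strand. The windows are chr15:81802423-81802722 (plus strand, 1 of 2 Tef windows), chr10:85185005-85185304 (minus) and chr19:34747279-34747578 (minus).
Tef: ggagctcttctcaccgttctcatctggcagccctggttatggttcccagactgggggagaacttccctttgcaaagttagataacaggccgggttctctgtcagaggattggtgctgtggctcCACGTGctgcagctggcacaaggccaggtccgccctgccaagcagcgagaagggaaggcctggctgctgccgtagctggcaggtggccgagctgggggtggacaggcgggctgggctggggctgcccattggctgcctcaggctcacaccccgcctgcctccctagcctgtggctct
Cry1: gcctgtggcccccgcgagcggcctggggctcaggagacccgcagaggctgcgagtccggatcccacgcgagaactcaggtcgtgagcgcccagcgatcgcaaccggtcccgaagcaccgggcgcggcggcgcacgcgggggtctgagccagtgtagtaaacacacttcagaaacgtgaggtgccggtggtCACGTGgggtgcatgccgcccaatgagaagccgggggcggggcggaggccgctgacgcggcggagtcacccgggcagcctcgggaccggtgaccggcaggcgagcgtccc
Slc16a12: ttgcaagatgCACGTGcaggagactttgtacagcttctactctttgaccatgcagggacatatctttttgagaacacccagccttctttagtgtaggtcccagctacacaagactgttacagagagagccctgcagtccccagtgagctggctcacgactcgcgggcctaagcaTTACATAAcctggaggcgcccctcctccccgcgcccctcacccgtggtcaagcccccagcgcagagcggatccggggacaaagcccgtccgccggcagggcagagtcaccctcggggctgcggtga

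The clock genes were combined per library as the log2 CPM of Dbp minus that of Arntl. On red this log2 ratio was -2.99 in the lowest, -0.23 in the median and 3.21 in the highest library. On tangerine it was 1.44, 3.55 and 6.89, and on control -3.59, 3.87 and 5.56. The red mean was -0.02 ± 2.07 and the tangerine mean 3.84 ± 1.98 (each with its SD, n = 12), a difference of 3.86 (two-sided permutation p 0.0002). Both genes were known to differ in these data when the ratio was chosen. The p-values of the ratio are therefore not independent of that choice, and it serves as a description. Leaving out 1 library at a time gave differences of 3.58 to 4.15. The 3 highest tangerine values belong to mice 215, 216 and 217, the libraries whose removal ended the most calls among the named genes (34, 40 and 38 of 78). Mouse numbers were not spread evenly over the diets. The 8 mice numbered 192 to 204 adjoin each other, the 4 lowest numbers on tangerine and the 4 highest on red. There the ratio was -2.99, -0.85 and 2.49 on red and 1.44, 2.95 and 3.71 on tangerine, a difference of 3.31 (exact two-sided permutation p 0.0571, where the smallest possible with 4 against 4 is 0.0286). The labels give no collection time, so diet and time of collection cannot be told apart.

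**Figure D2:**
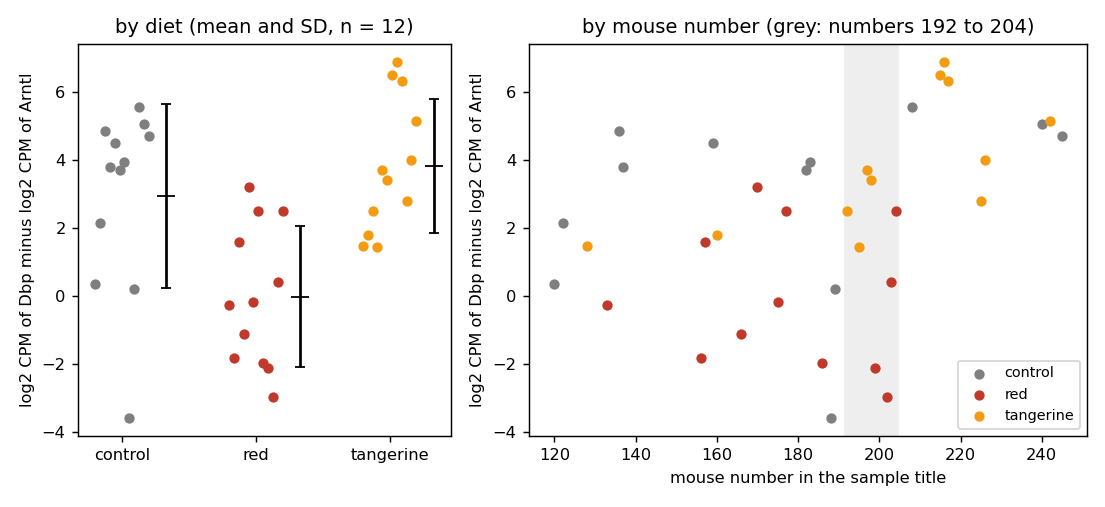
Log2 CPM of Dbp minus log2 CPM of Arntl in each library, by diet with the mean and SD of 12 libraries (left) and by mouse number with the numbers 192 to 204 shaded (right). The red libraries lie between -2.99 and 3.21 and the tangerine libraries between 1.44 and 6.89, and tangerine mice 215 to 217 hold the highest values.

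Among xenobiotic enzymes a few single genes passed the test. Cyp1a2 (ENSMUSG00000032310, chr9:57676937-57683703, minus strand), a hepatocyte cytochrome P450 that metabolizes caffeine and is induced through the aryl hydrocarbon receptor, had 295, 424 and 529 CPM in the lowest, median and highest red library and 432, 596 and 726 CPM on tangerine. On control it had 284, 391 and 527 CPM. Of 12 tangerine libraries 10 exceeded every red library, and all 12 exceeded the red median (1.35-fold, log2 0.44, SE 0.095, adjusted p 0.0155). The other 5 of 6 tested genes of that receptor did not pass. Of the 6, 5 were fitted higher and 1 lower, with a median of 0.21. At an unadjusted p under 0.05, 3 of the 6 were higher, where 6.6% of all tested genes were. Cyp1a1, the most inducible target of the receptor, had a red median of 1.39 CPM and a tangerine median of 1.82 CPM (log2 fold change 0.35, SE 0.137, adjusted p 0.197), and the receptor gene Ahr had a change of 0.09 (SE 0.161, adjusted p 0.835).

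Of 59 tested cytochrome P450 genes of families 1 to 4, 3 were higher and 2 lower by the test, with a median log2 fold change of 0.08. Cyp2a5, a coumarin hydroxylase under clock control, had medians of 82.6 CPM (54.7 to 177) on red and 171 CPM (91.2 to 332) on tangerine (log2 fold change 1.02, SE 0.256, adjusted p 0.0309). Its pseudogene neighbour Cyp2a21-ps had 1.09 (SE 0.264, adjusted p 0.0251). How reads shared by such close copies were counted is not given in the sources used here, so both are uncertain. Cyp4f17, a member of the fatty acid hydroxylase family, fell from 10.4 CPM (7.93 to 13.4) to 7.05 CPM (5.32 to 9.17), with 9 tangerine libraries below every red one (log2 fold change -0.56, SE 0.101, adjusted p 0.00512). Cyp2c55 fell from 3.39 to 2.27 CPM in the median (log2 fold change -0.54, SE 0.131, adjusted p 0.026) and was the only 1 of 16 tested CAR and PXR genes past the threshold. Cyp2d11 was higher by 0.25 (SE 0.068, adjusted p 0.0463). Cyp2c29, another target of CAR, had a red median of 1194 CPM and a tangerine median of 1052 CPM, a log2 fold change of -0.24 (SE 0.092, adjusted p 0.199).

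Cyp1a2 and Cyp4f17 kept their calls in all 36 fits without 1 library. Cyp2c55 lost its call without red 166 or 199 or tangerine 216 or 217, and Cyp2a21-ps without tangerine 215 or 217. Cyp2a5 stayed past the threshold in 26 fits and Cyp2d11 in 12. No gene passed among 21 glutathione S-transferases, 10 UDP-glucuronosyltransferases, 6 sulfotransferases, 15 carboxylesterases, 4 flavin monooxygenases or 19 alcohol and aldehyde dehydrogenases. All 10 UDP-glucuronosyltransferases and all 6 sulfotransferases were fitted higher on tangerine, with medians of 0.14 and 0.24. Among 27 tested genes of NRF2, the regulator of antioxidant defence, 1 passed, with a list median of 0.01. This was Gclc, the catalytic subunit of the enzyme that starts glutathione synthesis. Gclc went from a red median of 360 CPM (283 to 501) to 275 CPM on tangerine (193 to 384) and 274 CPM on control, a log2 fold change of -0.43 (SE 0.113, adjusted p 0.0359), past the threshold in 24 of 36 fits without 1 library. Nqo1, the common marker of NRF2 activity, had a change of 0.09 (SE 0.148, adjusted p 0.827), and Osgin1 had -0.49 (SE 0.237, adjusted p 0.324).

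Several genes of nitrogen disposal were higher on tangerine. In the urea cycle 3 of 8 tested genes passed, all higher, with a list median of 0.25, where 0.732% of all tested genes were called higher. These 3 were also the only called genes of 14 tested on the periportal hepatocyte list. On the pericentral list 3 of 13 passed, again all higher (Lect2, Cyp1a2 and Gulo). Cps1 (ENSMUSG00000025991, chr1:67123026-67231259, plus strand), the mitochondrial entry enzyme of the cycle, had 2558, 3173 and 4158 CPM on red and 3008, 4481 and 5676 CPM on tangerine (log2 fold change 0.40, SE 0.108, adjusted p 0.0446). For Asl the medians were 324 and 418 CPM (0.37, SE 0.098, adjusted p 0.0415), and for Arg1, which releases urea, 1061 and 1288 CPM (0.31, SE 0.075, adjusted p 0.0251). Arg1 lost its call without tangerine 216 or 217, whereas Asl kept it in 21 of 36 fits and Cps1 in 20.

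Uox (ENSMUSG00000028186, chr3:146570426-146632305, plus strand), which degrades uric acid and is lost in humans, had 1232, 1404 and 1573 CPM on red against 1160, 1786 and 2201 CPM on tangerine and a control median of 1716 CPM. Tangerine 226 lay below every red library and the other 11 above every red library (log2 fold change 0.35, SE 0.069, adjusted p 0.00785). Adk, which phosphorylates adenosine, was higher by 0.16 (SE 0.039, adjusted p 0.0251), from 523 CPM (500 to 590) to 597 CPM (553 to 648), and was chosen after its values were seen. Both calls held in all 36 fits without 1 library.

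A list of amino acid breakdown genes was added after the data were seen. Its counts therefore only describe these data. Of its 46 tested genes 36 were fitted higher (48.5% of all tested genes were) and 10 lower, from -0.43 to 0.56, with a median of 0.07. The test was passed by 4, all higher, where 0.732% of all tested genes were called higher. At an unadjusted p under 0.05, 16 were higher and 2 lower. Prodh (ENSMUSG00000003526, chr16:18060357-18090203, minus strand), which opens proline breakdown, had 105, 126 and 160 CPM on red and 150, 171 and 250 CPM on tangerine, 8 of 12 above every red library (1.48-fold, log2 0.56, SE 0.111, adjusted p 0.00909). Gch1, which starts tetrahydrobiopterin synthesis, was also higher, from 97.2 CPM (81.6 to 119) to 137 CPM (99.6 to 156), a log2 fold change of 0.37 (SE 0.076, adjusted p 0.014). Gpt, an alanine aminotransferase, had 0.34 (SE 0.083, adjusted p 0.0251) and Bckdhb, of branched-chain keto acid breakdown, 0.15 (SE 0.036, adjusted p 0.0271). The glutamine transporter Slc38a3 went from 1547 CPM (1282 to 1823) to 2106 CPM (1524 to 2769), a log2 fold change of 0.45 (SE 0.095, adjusted p 0.0146). Its relative Slc38a4 had 0.37 (SE 0.099, adjusted p 0.0416). Gch1, Slc38a3 and Slc38a4 were chosen after their values were seen. Prodh, Gch1 and Slc38a3 kept their calls in all 36 fits. Gpt lost its call without red 202 or tangerine 216, 217 or 242, Bckdhb without red 133 or 202 or tangerine 215 or 216, and Slc38a4 kept it in 22 of 36.

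In sterol metabolism most changes were small and missed the threshold. All 19 tested genes of cholesterol biosynthesis were fitted higher on tangerine, with a list median of 0.23 against -0.00 over all tested genes, and 0 passed at the adjusted threshold. Their log2 fold changes ran from 0.01 to 0.74, and the smallest adjusted p was 0.054. At an unadjusted p under 0.05, 12 of the 19 were higher, where 6.60% of all tested genes were. Sqle, which oxidizes squalene on that path, had a red median of 110 CPM (64.0 to 132) and a tangerine median of 121 CPM (75.8 to 168), a log2 fold change of 0.23 (SE 0.129, adjusted p 0.408). The gene of the pathway's regulator, Srebf2, had -0.08 (SE 0.050, adjusted p 0.465). Tmem97, a sterol-regulated sigma receptor, did rise, from 53.9 CPM (46.5 to 58.4) to 65.7 CPM (58.1 to 86.9), with 11 of 12 tangerine libraries above every red one (log2 0.29, SE 0.065, adjusted p 0.0173).

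Abcg5 and Abcg8, whose products together export sterols into bile, were both higher. Abcg5 (ENSMUSG00000040505, chr17:84658234-84683011, minus strand) had 47.9, 67.9 and 77.6 CPM on red and 71.0, 86.0 and 103 CPM on tangerine (log2 0.35, SE 0.079, adjusted p 0.0173), and Abcg8 had 75.7, 107 and 120 CPM and then 106, 132 and 170 CPM (0.34, SE 0.086, adjusted p 0.03). The pair is annotated with 6710 shared bases on opposite strands, so reads there cannot be assigned without the strand setting. The other 6 of 8 tested LXR genes did not pass, and the list median was -0.02. Erg28, a scaffold of sterol synthesis chosen after its values were seen, had a log2 fold change of 0.29 (SE 0.057, adjusted p 0.00785). Stard5, a carrier of bile acids and sterols, went from 110 CPM (105 to 131) to 149 CPM (112 to 191.1), a change of 0.39 (SE 0.073, adjusted p 0.00564). Tmem97, Abcg5, Erg28 and Stard5 kept their calls in all 36 fits without 1 library, and Abcg8 lost it without red 175 or 186 or tangerine 215, 216 or 217. In the 8 mice numbered 192 to 204 the change was 0.08 for Abcg5, 0.12 for Abcg8, 0.21 for Stard5 and 0.17 for Tmem97.

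The lists of fatty acid synthesis, fructose and glucose genes gave 4 calls, all higher on tangerine. Thrsp (ENSMUSG00000035686, chr7:97412938-97417730, minus strand), a small protein that promotes fatty acid synthesis, had 241, 704 and 887 CPM on red and 282, 1220 and 2176 CPM on tangerine. Of 12 tangerine libraries 10 exceeded every red library and the other 2 lay below the red median, tangerine 226 lowest (2.07-fold, log2 1.05, SE 0.261, adjusted p 0.0287). It was the only 1 of 23 tested genes of fatty acid and triglyceride synthesis past the threshold, where the list median was 0.18. Of 28 genes of fatty acid oxidation 20 were fitted lower and 0 passed, with a median of -0.13. At an unadjusted p under 0.05, 7 of the 28 were lower, where 8.52% of all tested genes were. Slc2a5 (ENSMUSG00000028976, chr4:150119283-150144169, plus strand), the fructose transporter, had the smallest p of all tested genes. Its level was 4.92, 6.39 and 8.20 CPM on red, 7.91, 9.21 and 15.7 CPM on tangerine and 4.54, 8.03 and 11.4 CPM on control, with 10 tangerine libraries above every red one (1.72-fold, log2 0.78, SE 0.125, adjusted p 0.00381). None of the other 3 fructose genes tested passed.

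Of 17 tested genes of glucose production and glycogen, 2 passed. Beside Gys2 this was Ugp2, which makes the UDP-glucose for glycogen, from 385 CPM (292 to 487) to 485 CPM (391.5 to 634), a log2 fold change of 0.35 (SE 0.086, adjusted p 0.0265). Slc37a4, which carries glucose 6-phosphate into the endoplasmic reticulum and was chosen after its values were seen, had 0.39 (SE 0.096, adjusted p 0.0265). Slc2a5 kept its call in all 36 fits without 1 library. The call of Thrsp ended without red 166, 175, 199 or 202 or tangerine 216, 217 or 242, that of Ugp2 without red 175 or 202 or tangerine 198, 215 or 216, and that of Slc37a4 without red 175 or tangerine 216 or 217.

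The 3 fibrinogen chains were the acute phase genes that differed, all lower on tangerine. Fga (ENSMUSG00000028001, chr3:83026076-83033627, plus strand) had 3816, 5497 and 6210 CPM on red and 3441, 3934 and 5223 CPM on tangerine (log2 fold change -0.34, SE 0.084, adjusted p 0.0278). Fgb had medians of 5064 and 3905 CPM (-0.31, SE 0.078, adjusted p 0.032) and Fgg of 3385 and 2593 CPM (-0.30, SE 0.083, adjusted p 0.0463). The control medians were between these for all 3 chains (4522, 4712 and 3144 CPM). The other 14 of 17 tested acute phase genes did not pass, and the list median was -0.01. These calls were sensitive to single libraries. Fga lost its call without red 156, 199 or 202 or tangerine 215, 216 or 217, Fgb kept it in 26 of 36 fits and Fgg in 18.

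All 17 tested interferon response genes were fitted lower on tangerine, with a median of -0.26, and 1 passed. Stat2, a signal carrier of type I interferon, went from 62.7 CPM (48.1 to 80.0) to 53.3 CPM (46.0 to 57.7), a log2 fold change of -0.26 (SE 0.064, adjusted p 0.0251), and lost its call without tangerine 215 or 216. Lower at an unadjusted p under 0.05 were 6 of the 17 (8.52% of all tested genes). Ifit3, Ifit1 and Isg15, classical interferon-induced genes chosen after their values were seen, had -0.36, -0.34 and -0.26 with adjusted p of 0.305, 0.446 and 0.445. The 12 Kupffer cell markers, of which 11 were fitted lower, gave 0 calls, and their part in these values was not tested.

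Among the other genes with the largest changes, Bmf (ENSMUSG00000040093, chr2:118528757-118549687, minus strand), a BCL2 family member that promotes apoptosis, had 3.72, 8.41 and 13.7 CPM on red and 3.75, 19.2 and 34.4 CPM on tangerine. With 8 tangerine libraries above every red one, the fitted difference was 2.46-fold (log2 1.296, SE 0.288, adjusted p 0.0173), and no other of the 12 tested BCL2 family genes passed. Ntrk2 (ENSMUSG00000055254, chr13:58806569-59133970, plus strand), the receptor of brain-derived neurotrophic factor, had 9.28, 24.9 and 50.8 CPM on red and 35.9, 50.4 and 60.8 CPM on tangerine, with a control median of 53.6 CPM (log2 0.94, SE 0.202, adjusted p 0.0152). The ligand gene Bdnf, chosen after its values were seen, was higher as well, from 1.12 CPM (0.658 to 1.55) to 2.19 CPM (0.882 to 3.16), a log2 fold change of 0.87 (SE 0.184, adjusted p 0.0146). Gpcpd1, which releases choline from glycerophosphocholine, had medians of 36.6 CPM (20.6 to 60.02) and 68.9 CPM (35.9 to 169), a change of 1.04 (SE 0.210, adjusted p 0.0125). Chka, which phosphorylates choline at the start of phosphatidylcholine synthesis, went the other way, from 55.0 CPM (28.0 to 93.2) to 23.7 CPM (12.7 to 41.0), a change of -1.15 (SE 0.241, adjusted p 0.0146). All of these calls held in every one of the 36 fits without 1 library. In the 8 mice numbered 192 to 204 the log2 fold change was 0.21 for Bmf, 0.16 for Bdnf, 0.64 for Gpcpd1 and 1.41 for Ntrk2.

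Clpx, the unfolding subunit of a mitochondrial protease, was also lower on tangerine. It went from 189 CPM (101 to 275) to 103 CPM (51.0 to 129), a log2 fold change of -0.99 (SE 0.222, adjusted p 0.0173). Dnmt3b, a de novo DNA methyltransferase, had -1.04 (SE 0.245, adjusted p 0.0237), Spon2, a secreted matrix protein, -1.09 (SE 0.248, adjusted p 0.0196), and Nckap5 -1.27 (SE 0.283, adjusted p 0.0173). The stress-responsive gene Ndrg1 had -0.96 (SE 0.205, adjusted p 0.015), with its highest level, 22.8 CPM, in red 202. Dnmt3b lost its call without tangerine 216, and the other 4 genes kept theirs in all 36 fits.

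The lower genes with the smallest p changed less in size than those just named, and Chd4 and Unc119b did so with little spread. Chd4 (ENSMUSG00000063870, chr6:125095981-125130591, plus strand), the motor of the NuRD chromatin remodeller, had 89.5, 111 and 122 CPM on red and 71.7, 86.9 and 97.1 CPM on tangerine (log2 -0.34, SE 0.058, adjusted p 0.00394). Unc119b, a carrier of lipid-modified proteins, had 34.2, 36.6 and 42.3 CPM and then 25.8, 31.0 and 34.98 CPM, with 11 tangerine libraries below every red one (-0.27, SE 0.047). Eps8l2, an actin regulator, had medians of 37.4 and 23.4 CPM (-0.63, SE 0.108), Tymp, thymidine phosphorylase, of 78.3 and 50.8 CPM (-0.63, SE 0.110), and the peroxisomal membrane protein Pxmp4 of 96.8 and 70.0 CPM (-0.48, SE 0.084). All 5 shared the adjusted p of 0.00394 and kept their calls in all 36 fits. Among genes higher on tangerine, Lect2 (ENSMUSG00000021539, chr13:56542464-56548502, minus strand), a secreted hepatocyte factor of pericentral cells, had 71.3, 91.8 and 108 CPM on red and 98.0, 112 and 151 CPM on tangerine (0.36, SE 0.067, adjusted p 0.00564). Shld1, of DNA break repair, had medians of 5.06 and 7.78 CPM (0.80, SE 0.155, adjusted p 0.00785), and Gulo, the last enzyme of vitamin C synthesis, of 497 and 570 CPM (0.25, SE 0.060, adjusted p 0.0237). Thra, a thyroid hormone receptor gene chosen after its values were seen, had a change of -0.37 (SE 0.077, adjusted p 0.014). Its span shares 1075 bases with Nr1d1 on the other strand, which was fitted in the opposite direction.

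**Figure D3:**
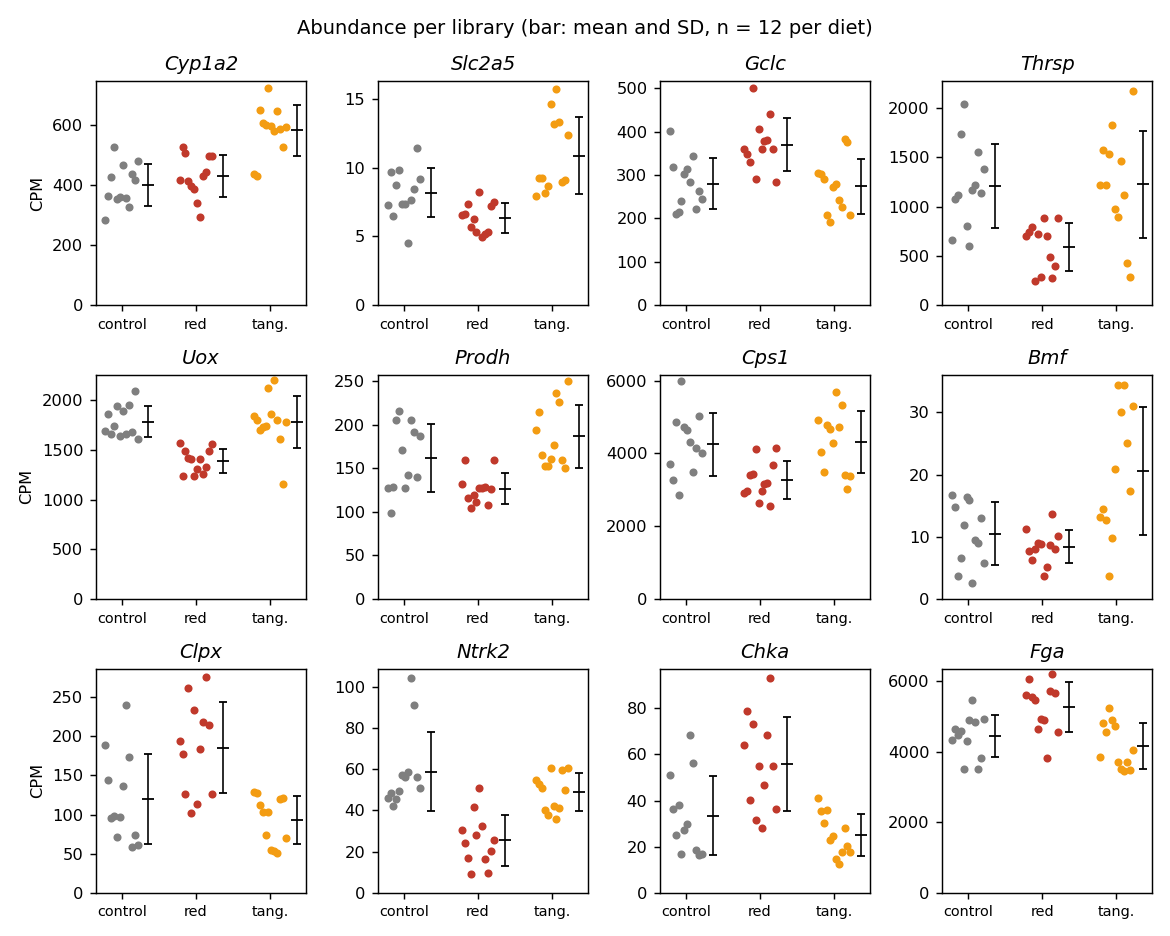
CPM (vertical axis, from 0) of 12 genes in each library by diet, with the mean and SD of 12 libraries beside the points. Cyp1a2 on control (284 to 527 CPM) overlaps red, whereas Uox on control (median 1716 CPM) lies near tangerine (1786) and above red (1404).

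Of the 5 most negative changes among the called genes, 1 was that of Npas2 (-2.51) and the other 4 were those of T cell genes and rested on red 186. Satb1 (ENSMUSG00000023927, chr17:51736187-51833290, minus strand), a chromatin organizer of developing T cells, had a log2 fold change of -2.95 (SE 0.755, adjusted p 0.0337), the T cell receptor gene Trbc2 -2.89 (SE 0.748, adjusted p 0.0359), the kinase gene Lck -2.59 (SE 0.689, adjusted p 0.0413) and Thy1 -2.37 (SE 0.630, adjusted p 0.0413). Satb1 had 2109 counts in red 186, 13 to 25 in the other red libraries and 12 to 33 on tangerine. Trbc2 had 1894, 10 to 28 and 8 to 30 counts in the same order. Of the 22 T cell markers 21 were highest in red 186. Without that library the changes were 0.32 for Satb1, 0.21 for Trbc2, 0.08 for Lck and -0.03 for Thy1, and none of these passed (adjusted p 0.364 to 0.958). Dntt, an enzyme of lymphocyte receptor assembly chosen after its values were seen, had 1711 counts in red 186 and 78 to 206 in the other red libraries. The 10 listed markers of immature thymic T cells, Satb1 and Dntt among them, summed to 6626 counts in red 186 and to 179 to 347 in the other red libraries. Of these 10, Ptcra, Rag1 and Rag2 had 0 counts in every red library, red 186 included. Cd4 (1030 counts in red 186) and Cd8b1 (1052) are also on the T cell list. Whether immature T cells were present was not tested. Without red 186, 206 genes were called in the comparison, of which 186 were among the 241.

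**Figure D4:**
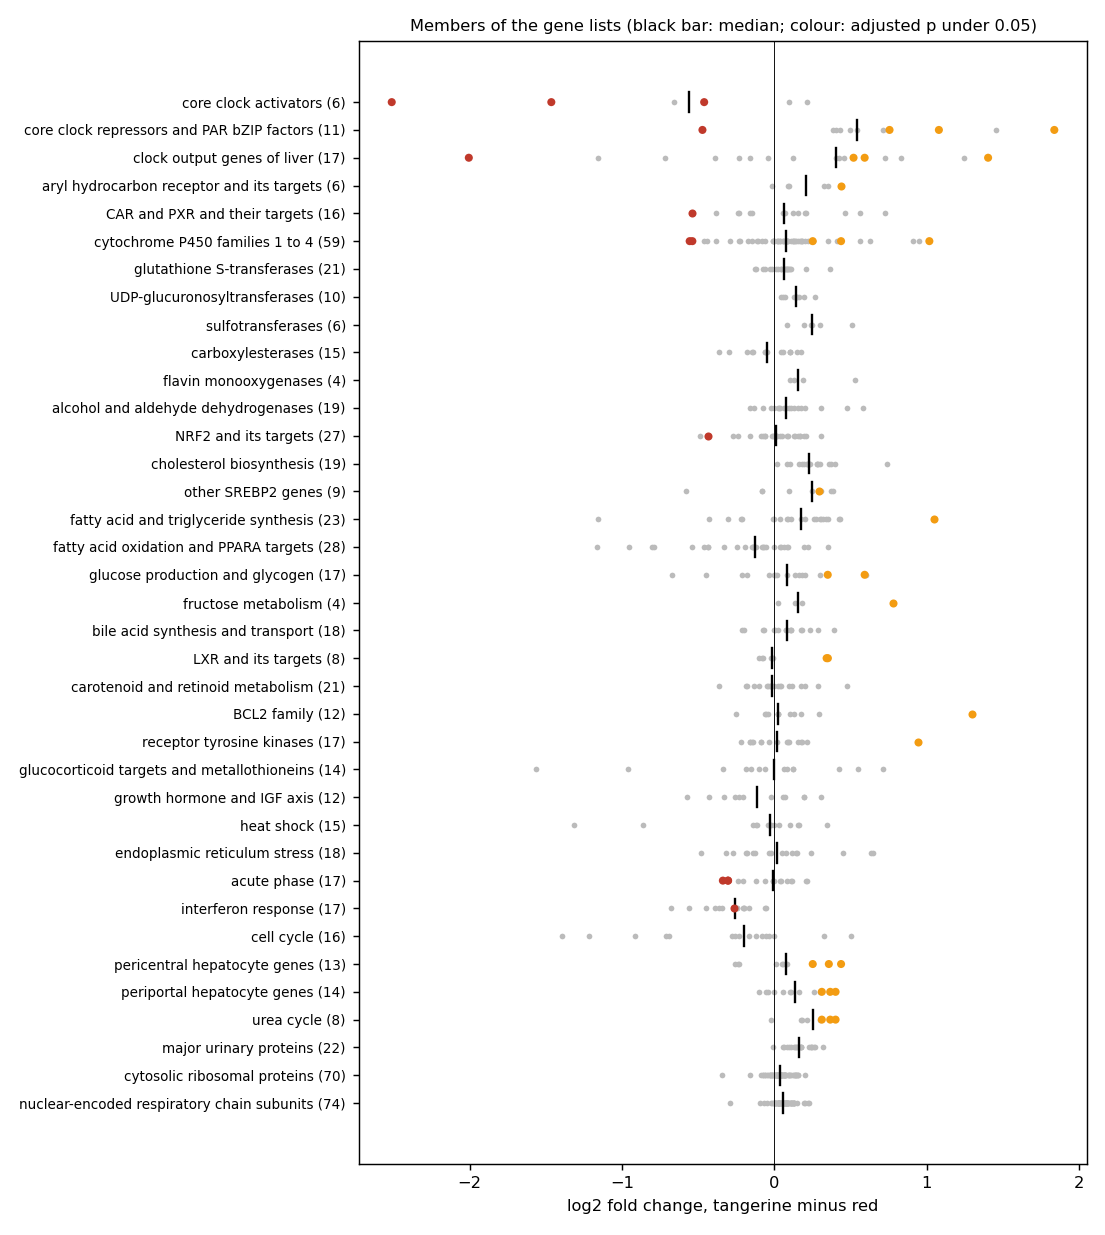
Log2 fold change of tangerine against red (horizontal axis) for the tested members of each pathway list, whose number stands in brackets; coloured points passed the adjusted threshold and black bars are medians. Among these lists, which leave out the cell type markers, the clock activators (median -0.56) and repressors (0.54) lie furthest from 0.

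Carotenoid and retinoid genes, the pathway closest to the pigments that set the powders apart, gave 0 calls among 21 tested, with a median of -0.02. At an unadjusted p under 0.05, 2 were higher and 1 lower, where 6.6% and 8.52% of all tested genes were. Bco1, which cleaves provitamin A carotenoids, had medians of 14.3 CPM on red and 13.6 CPM on tangerine, a log2 fold change of -0.04 (SE 0.087, adjusted p 0.873). For Bco2, which cleaves lycopene eccentrically, these were 16.3 and 16.1 CPM (-0.02, SE 0.069, adjusted p 0.938), and for the uptake receptor Scarb1 218 and 199 CPM (-0.10, SE 0.075, adjusted p 0.53). No gene was called among 18 of bile acid synthesis and transport, 14 glucocorticoid targets and metallothioneins, 12 of the growth hormone axis, 15 heat shock genes, 18 of endoplasmic reticulum stress, 22 major urinary proteins or 70 ribosomal proteins. Among 74 nuclear-encoded respiratory chain subunits 0 passed, with a median of 0.06. At an unadjusted p under 0.05, 16 of the 74 were higher, where 6.6% of all tested genes were. Of 16 cell cycle genes 14 were fitted lower and 0 passed. Their extremes Top2a (-1.40) and Mki67 (-1.21), chosen after their values were seen, had their highest red levels in red 186 (27.9 and 22.1 CPM).

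Relative to control, the called genes mostly had the red and tangerine means on opposite sides. The control mean lay between the red and tangerine means for 213 of the 241 genes, where 39.1% of all tested genes had it there. A wide gap between the outer means by itself leaves more room for control in between. It was nearer the tangerine mean for 198 and nearer the red mean for 43, where 59.6% of all tested genes had it nearer the tangerine mean. Cyp1a2 was one of the 43 genes with control nearer red. Its control mean (401 CPM) lay below both the red mean (431 CPM) and the tangerine mean (583 CPM). The control libraries entered the test of tangerine against red through the shared estimate of spread.

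The changes were smaller in a fit that took the clock ratio of each library into account. The mean of that ratio was -0.02 on red and 3.84 on tangerine. Diet and clock ratio thus overlap, and this fit cannot tell their parts in a change apart. With the Dbp to Arntl log2 ratio as a covariate no gene passed the adjusted threshold and 1619 had an unadjusted p under 0.05, while the median change of the 241 genes was 51.6% of its size without the covariate. Of 37 genes with the largest changes or smallest p, all moved closer to 0, 35 kept their sign, 12 kept under 25% of their change and 5 kept over 75%. The log2 fold change of Lect2 was then 0.35, of Chd4 -0.31, of Ntrk2 0.84, of Uox 0.29 and of Thrsp 0.82. Those of Cyp2a5 (0.02), Dnmt3b (-0.10) and Clpx (-0.15) were near 0. Dbp and Arntl make up the covariate and are among the 37 genes. Their own values in that fit, and their part in the counts over the 37, are therefore circular. Among only the 8 mice numbered 192 to 204 all 37 kept their sign, but 3 had under 25% of their change and 18 over 75%. Upp2 had 0.35 there, Map2k6, a stress-activated kinase gene, 0.09 against 0.93 in all mice, and the amino acid genes Prodh 0.28 and Gch1 0.17. Of the 78 called genes named by rule or by choice, 5 passed in those 8 mice (Tymp, Lect2, Cyp1a2, Gulo and Blnk), 17 passed with the mouse number as a covariate, and Tymp and Lect2 passed in both.

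**Figure D5:**
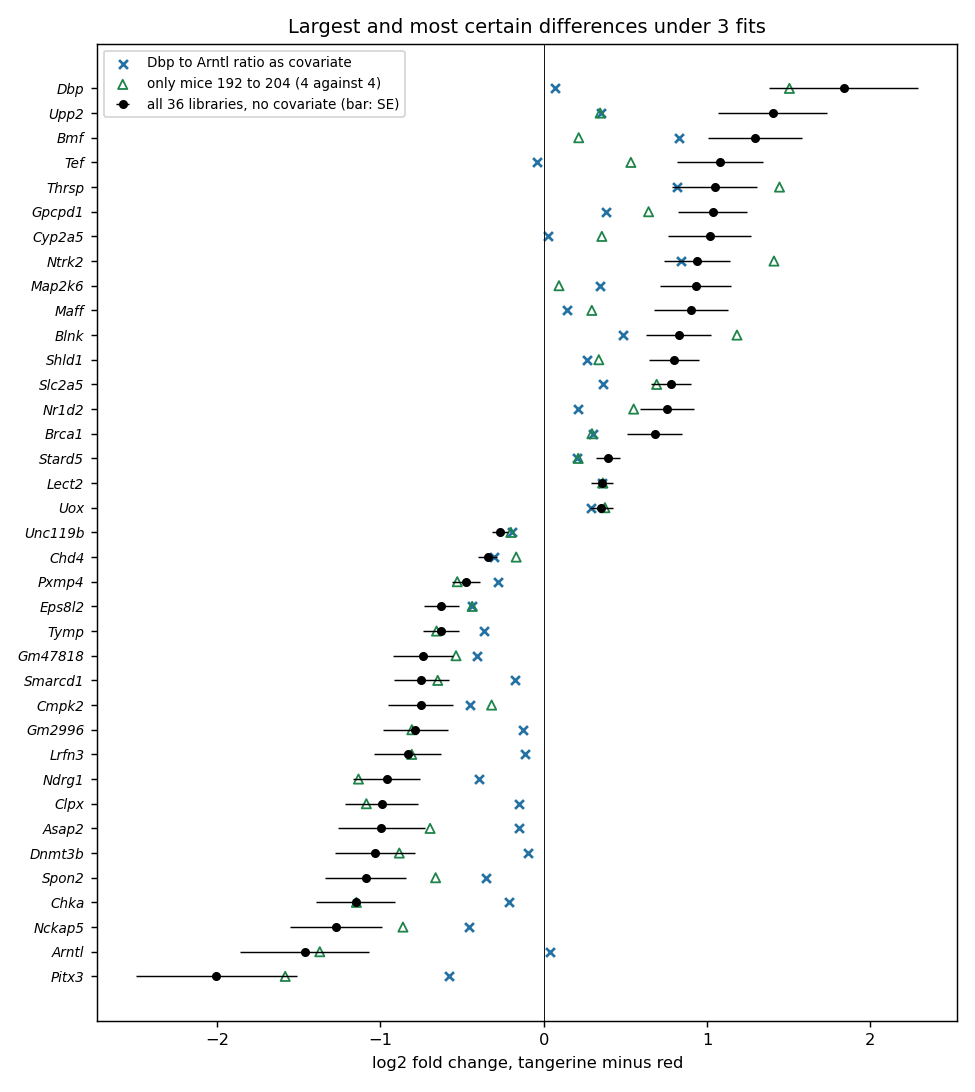
Log2 fold change of tangerine against red (horizontal axis) of 37 genes in the fit to all 36 libraries (black, bar: SE), with the Dbp to Arntl ratio as a covariate (blue crosses) and in the 8 mice numbered 192 to 204 (green triangles). Dbp, Tef, Cyp2a5 and Arntl lie near 0 with the covariate, whereas Lect2, Chd4 and Ntrk2 keep most of their change. Dbp and Arntl make up that covariate.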

How the data were processed

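The authors deposited 1 table of raw read counts for 53715 gene identifiers in 36 libraries, whole numbers without normalization. Per the labels' protocols, RNA came from preserved liver (Qiagen RNeasy) and libraries from the NEXTflex Rapid Directional kit. The submitters' processing notes name FastQC, Trimmomatic, edgeR and the build GRCm38.p6, without versions or roles. The aligner, counter, annotation and strand setting are not given in the sources used here. Columns were matched to samples through the column names in the labels.

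Symbols and positions came from GENCODE M21 by identifier (53620 matched, and the other 95 held 0.00177% of counts). Promoter windows came from RefSeq, matched by symbol. Genes were filtered with filterByExpr (count 10, total 15), which kept 14068, and scaled by TMM. The main test was the quasi-likelihood F test of edgeR 4.0.16, robust, fitted to all 36 libraries, with Benjamini-Hochberg adjustment over all tested genes and a threshold of 0.05. The standard error is the absolute log2 fold change divided by the square root of F. CPM are TMM-scaled, and log2 CPM has a prior count of 2. Library values were compared by two-sided permutation tests of means in scipy 1.17.1 (100000 resamples, or exact for 4 against 4). The test was checked on simulated counts. Where the labels say only that samples are separate mice, p-values measure the spread between these 36 libraries.

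Genes named were in each direction the 15 largest changes among genes averaging 1 or more in log2 CPM, the 5 smallest p, up to 4 called and 3 most abundant members of each list, and a short list of clock, xenobiotic, sterol and carotenoid genes. The members and lists were chosen with earlier results of these data known. Alternatives were DESeq2 1.42.0 and its size factors, upper-quartile scaling, other low-count filters, limma-voom 3.58.1 with sample weights, only the 24 libraries, the Dbp to Arntl ratio or mouse number as covariate, the 8 mice numbered 192 to 204, and leaving out libraries. A few genes that the naming rule admits are not reported here.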

Additional observations from a re-analysis of the deposited data

How the results depend on the processing

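The number of genes past the threshold, 241 in the main test, moved by more than 1.5 times under several settings. It was 136 with no filter on low counts (27335 genes tested), 421 with the DESeq2 test, 732 with limma-voom and sample weights, 32 with mouse number as a covariate, 121 in the 8 mice numbered 192 to 204 (11 shared with the 241), 86 without red 186 and tangerine 216 together (82 shared), and 0 with the Dbp to Arntl ratio as a covariate. For that 0, edgeR gave 1619 genes at an unadjusted p under 0.05. The cause of these moves was not tested, beyond the fewer libraries or larger number of tested genes that some settings have by construction. Leaving out 1 library at a time gave 89 to 301 genes, and 83 of the 241 were called in all 36 such fits. The number was below 241 by more than 1.5 times without red 133 (151), 156 (153), 175 (155), 199 (156) or 202 (133), and without tangerine 215 (115), 216 (89), 217 (105) or 242 (146). The other settings gave 236 (DESeq2 size factors), 228 (upper quartile), 264 (mean log2 CPM of at least 1) and 333 (only the 24 libraries). The Dbp to Arntl difference was 3.31 in the 8 mice, with an exact permutation p of 0.0571, against 3.86 in all mice.

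Signs reversed for a few named genes. In the 8 mice the log2 fold change was -0.0173 for Gpt, 0.69 for Satb1, 0.58 for Trbc2, 0.22 for Thy1, 0.35 for Lck and -0.67 for Aldh1a1, a retinaldehyde dehydrogenase with 0.02 in all mice. With the ratio as covariate it was -0.0384 for Tef, 0.0379 for Arntl and 0.0103 for Cry1. Without red 186 and tangerine 216 it was 0.33 for Satb1, 0.20 for Trbc2 and 0.12 for Lck, and with limma-voom 0.0578 for Satb1. Leaving out 1 library at a time, it ran from -3.07 to 0.32 for Satb1, from -3.01 to 0.21 for Trbc2 and from -2.71 to 0.082 for Lck, with the highest value of each without red 186. No paired analysis was possible because no mouse number occurs in more than 1 diet. The total counts of 21290169 to 33810573 per library limit the genes of lowest level, which the filter left out.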
